A study of Homo sapiens with 4 samples.

Results

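The peaks described here lie on chromosome 11 between TH, the gene of tyrosine hydroxylase, and ASCL2, in hg19 from 2195000 to 2310000. They comprise every line of the 4 deposited peak lists whose summit falls in that interval, 11 of 2177 peaks. The interval was chosen by the listed peak positions, because it holds many peaks after induction of SNAIL1. The presence, number and spacing of peaks there are therefore a description and carry no test. ASCL2 spans 2289725 to 2292182 and is read from the minus strand, so its start is at 2292182 and the peaks lie on its downstream side. In RefSeq's GRCh38.p14 annotation, used here for the order of genes only, TH is followed by MIR4686, ASCL2, C11orf21 and TSPAN32.

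The cells were LS174T, an established human colorectal adenocarcinoma line (pN1-LS174T Snail1-HA), in which doxycycline switches on mouse SNAIL1 with a hemagglutinin (HA) tag. For the 2 induced libraries the cells received doxycycline at 0.1 mg/ml over 6 h, and for the 2 uninduced libraries cells of the same line went without it. Chromatin was precipitated with an anti-HA antibody, so the peaks show tagged mouse protein made from a transgene and not the SNAIL1 of the cells themselves. The study calls the replicates biological. No source used here says whether each was its own culture, so the spread between them may be technical.

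ASCL2 is a basic helix-loop-helix transcription factor that is a target of Wnt signalling in the intestine and helps keep the stem cells of the crypt in their state. It is often highly expressed in colorectal cancer. SNAIL1 is a zinc-finger repressor of epithelial genes that recognises E-boxes with the core CAGGTG and recruits corepressors. No expression was measured in these samples, and the sequence under the peaks was not analysed here.

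Both induced libraries carried a compact group of SNAIL1-HA peaks well away from ASCL2, and neither uninduced list had one there. Induced 1 had 5 peaks in the interval and induced 2 had 6, a mean of 5.5 ± 0.707 (SD, n = 2), against 0 in uninduced 1 and 0 in uninduced 2. The whole lists held 823 and 1338 peaks in induced cells but only 5 and 11 in uninduced cells, so a locus without an uninduced peak is the rule. All 11 peaks lay between 2223664 and 2236216, a stretch of 12.6 kb that makes up 10.9% of the interval. The rest of the interval, ASCL2 itself included, held no listed peak. The edge of the group nearest to ASCL2 was 53.5 kb from the near end of the gene and 56.0 kb from its start. The other edge was 28.7 kb from the start of the interval on the TH side. The hg19 positions of TH and MIR4686 were not used here, so distances to them are not given. ASCL2 is therefore not shown to be the gene nearest to the peaks. For comparison, 0.608% of all peaks of induced 1 and 0.523% of those of induced 2 overlapped an uninduced peak. The only uninduced peak on chromosome 11 had its summit at 3164312 in uninduced 2, 928 kb beyond the group.

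The 11 peaks fell into 7 separate sites, named A to G in order from TH towards ASCL2. Sites C, D, E and F were found in both induced lists, where a site counts as shared when its peaks overlap by at least 1 bp. Sites A and G were listed in induced 2 only and site B in induced 1 only. Of the 5 peaks of induced 1, 4 were thus shared (80.0%), beside 80.3% of all peaks of that list. Of the 6 peaks of induced 2, 4 were shared (66.7%), beside 49.3% of all. These shares rest on the positions that chose the interval and on few, neighbouring peaks, so nothing is read from them.

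**Figure D1:**
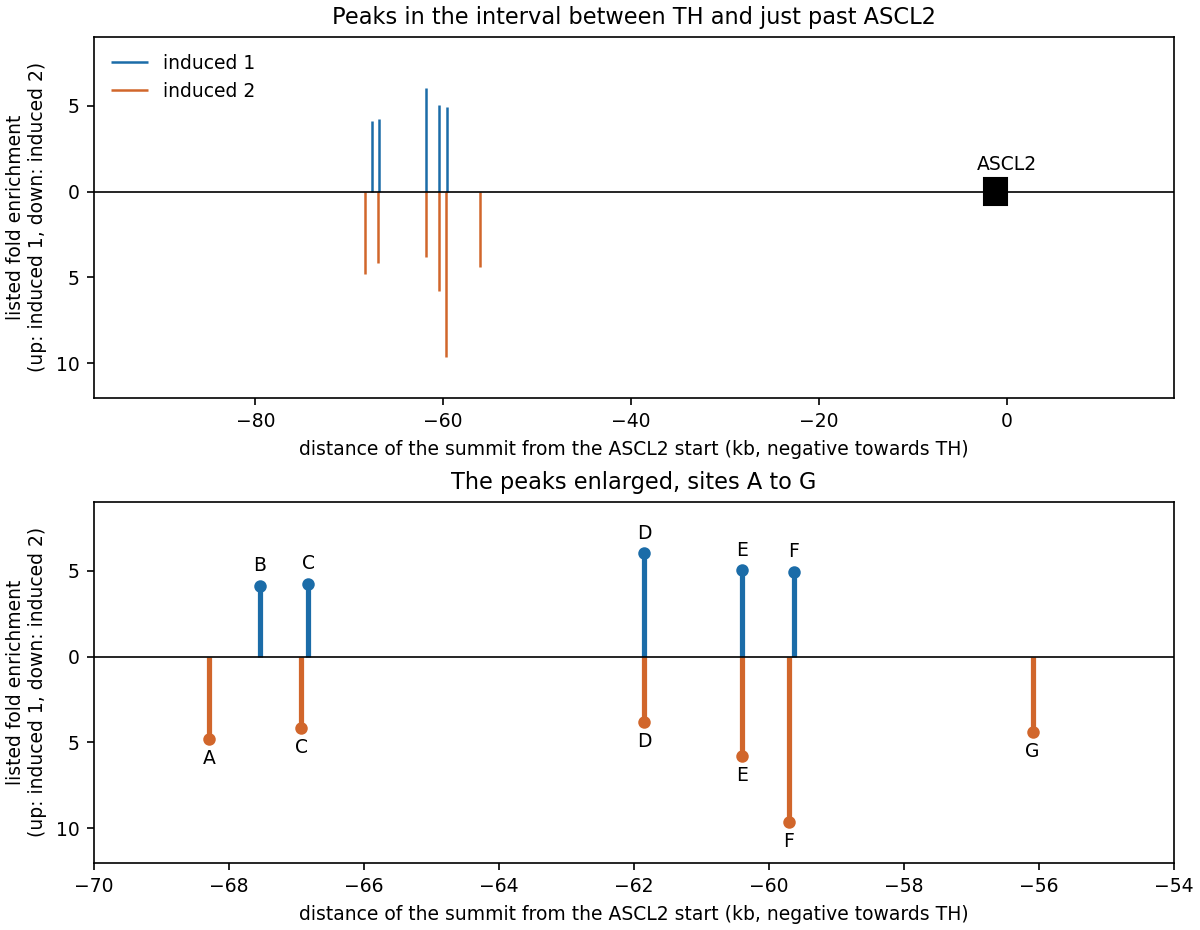
Listed fold enrichment (vertical axis, induced 1 upwards and induced 2 downwards) of each peak against the distance of its summit from the ASCL2 start in kb, over the whole interval (top) and enlarged (bottom); letters name the sites and the black box is ASCL2. All peaks sit between 68.3 and 56.1 kb from the gene start, and the tallest is site F in induced 2 at 9.61-fold.

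The sites were unevenly spaced. Sites A, B and C formed a first group within 1.41 kb, sites D, E and F a second within 2.18 kb, and site G stood alone. Summits of A and B lay 750 bp apart, those of B and C 664 bp apart by their mean position. The longest step, 5.03 kb, separated C from D. D and E were 1.45 kb apart and E and F 733 bp apart. Site G followed F after 3.58 kb. In induced 2 only 168 bp lay between the listed end of E and the start of F, against 407 bp in induced 1, so both libraries resolved these neighbours as separate peaks.

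Close spacing of this kind was uncommon in the lists. The 661 shared peaks of the genome are the induced 1 peaks that overlap an induced 2 peak, each taken with its partner of largest overlap. Only 660 induced 2 peaks overlapped an induced 1 peak, so not every shared peak has an induced 2 partner of its own. Among the shared peaks, neighbouring summits were a median of 1154 kb apart, and 4 pairs of neighbours were within 1 kb of each other, of which E and F were 1. Within 15 kb, a width chosen after the group had been seen, this locus held 5 peaks of induced 1 and 6 of induced 2, and the most found in any such window elsewhere was 4 in each list. In windows of 10 kb the locus held 5 in each list and no other place more than 3. In windows of 5 kb it had 3 in each list, and 2 other places in induced 1 and 1 in induced 2 had as many. In windows of 50 kb, 1 other place in induced 1 also held 5. Since the locus was picked for its density, these counts describe it and do not test it.

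By fold the peaks were of middling strength. Fold enrichment is the authors' ratio of ChIP reads at the summit to the local background, with 1 added to each. It ran from 4.12 to 6.01 in induced 1 with a median of 4.94, below the list's median of 5.33. In induced 2 it ran from 3.78 to 9.61 with a median of 4.58, below that list's 4.91. A fold of at least 5 was reached by 2 of 5 peaks in induced 1 (59.1% of the whole list) and by 2 of 6 in induced 2 (48.3% of the whole list). The summit pileup is the number of extended reads covering the summit, recovered from the listed fold and p, and its 95% exact Poisson interval covers counting error only. By pileup the libraries differed in their standing: the median was 47 reads in induced 1, below its list's 51, and 40 in induced 2, above its list's 35. The list of induced 1 held 823 peaks down to 28 reads and that of induced 2 held 1338 down to 17. List medians and percentiles are therefore unlike measures in the 2 libraries, and the part of list composition in this change of standing was not tested. Pileups and backgrounds of induced 1 are given on the scale of its ChIP reads, before a scaling down by 1.40 that was inferred from the listed values and is not stated by the submitters. Its listed folds refer to the scaled values, so they are not the plain ratio of the reads and backgrounds printed here.

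Site A, the farthest from ASCL2, had its peak at 2223664 to 2224084 in induced 2, with the summit 68.3 kb from the gene start. The fold was 4.77, with 36 reads at the summit (25.2 to 49.8) over a background of 6.76. Site B, at 2224503 to 2224773 in induced 1, had a fold of 4.12, the lowest of that library here, and 39 reads (27.7 to 53.3) over 8.40. Both are peaks of middle to low rank, at percentile 47.0 of fold in induced 2 and percentile 16.2 in induced 1. Although A and B lie close together, their peaks do not overlap and come from different libraries.

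Site C was the weakest of the shared sites by reads and among the widest. In induced 1 it spanned 2225223 to 2225797 and its induced 2 counterpart 2225165 to 2225755, widths of 575 and 591 bp against list medians of 338 and 336.5 bp. Its folds were 4.23 and 4.15 in turn, with 39 reads (27.7 to 53.3) and 30 reads (20.2 to 42.8). The summits were 105 bp apart, the largest shift between replicates at any of the shared sites. The listed folds differed by only 1.02 times.

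Site D had the same summit base, 2230334, in both libraries, 61.8 kb from the ASCL2 start. The induced 1 peak ran from 2230180 to 2230528. The induced 2 peak, from 2230196 to 2230447, was the narrowest of the interval at 252 bp. In induced 1 it was the strongest site of the group by fold, at 6.01 with 56 reads (42.3 to 72.7) over a background of 8.15. In induced 2 it was the weakest, at 3.78 with 37 reads (26.1 to 51.0) over 9.04. The order of the sites by fold therefore differed between the replicates, although the read intervals of D overlapped.

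Site E had the most reads of the group in induced 1. Its peaks covered 2231600 to 2231898 (induced 1) and 2231574 to 2232015 (induced 2), with summits 2 bp apart and 60.4 kb from the gene start. Induced 1 had 67 reads (51.9 to 85.1) at the summit, and induced 2 had 57 (43.2 to 73.9). The folds were 5.01 and 5.78, over backgrounds of 12.2 and 9.04. This background of 12.2 was the highest at any of the 5 peaks in induced 1, at percentile 90.5 of that list, so E ranks lower by fold than by reads.

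Site F, the shared site nearest to ASCL2, differed most between the replicates. Its induced 1 peak, 2232306 to 2232696, was 391 bp wide, and its induced 2 peak, 2232184 to 2232803, was 620 bp wide. Their summits lay 75 bp apart, 59.6 and 59.7 kb from the gene start. Induced 1 had 47 reads (34.5 to 62.5) and a fold of 4.94. Induced 2 had 74 reads (58.1 to 92.9) and a fold of 9.61, 1.95 times higher, which placed it at rank 98 of 1338. F was thus an upper-range site in induced 2, at percentile 92.7 of fold, and below the middle in induced 1, at percentile 39.4. Backgrounds were 8.40 reads in induced 1 and 6.80 in induced 2.

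Site G, the peak closest to ASCL2, was listed in induced 2 alone at 2235914 to 2236216, with the summit 56.1 kb from the gene start. Its fold was 4.38, with 43 reads (31.1 to 57.9) over a background of 9.04. By reads it ranked at percentile 69.8 of its list and by fold at percentile 35.7. Sites D, E and G had the same background of 9.04 in induced 2, between percentiles 90.7 and 92.2 of that list. All 6 peaks of induced 2 had a background above the list's median of 6.33. In induced 1 the background of site E lay above the list's median of 8.40, those of B and F equalled it to the digits given, and those of C and D lay below it at 8.15. The part of the local background in the folds here was not tested.

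**Figure D2:**
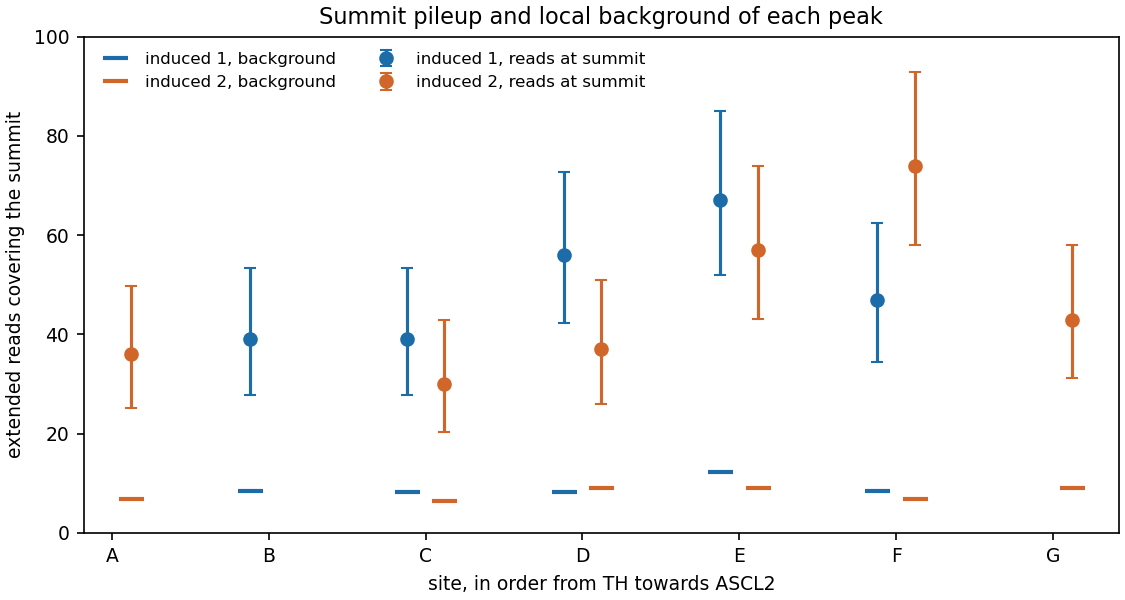
Extended reads covering the summit (points, with 95% exact Poisson intervals) and the local background (dashes) of each peak, by site from A to G, in induced 1 and induced 2. Every summit stands above its background of 6.46 to 12.2 reads, and the libraries change order at site F, with 47 reads in induced 1 and 74 in induced 2.

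Whether the replicates differed in reads at a site was asked for all 661 shared peaks at once. Induced 1 had 1.23 times as many summit reads as induced 2 over all of them, and each peak was tested against that ratio with a two-sided exact binomial test. After Benjamini-Hochberg adjustment 0 of 661 peaks passed (0% of all), and 19 had an unadjusted p under 0.05 (2.87% of all), of which site F was the only one in the interval. F had the lowest p of the 661, at 0.000343 by the exact binomial test, with an adjusted p of 0.226. Its log2 ratio of induced 1 to induced 2 beyond the overall ratio was -0.95. Sites C, D and E had unadjusted p of 0.904, 0.349 and 0.857 by the same exact test, each with an adjusted p of 1.

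The call at F turned on which ratio was taken between the libraries. The lowest background in each list, 6.00 reads in induced 1 and 4.15 in induced 2, was assumed to be the genome-wide background. This put the depth of induced 1 at 1.45 times that of induced 2, which could not be checked against total reads. Against that ratio F passed with an adjusted p of 0.00485 in the exact binomial test, 1 of 5 shared peaks that did, all of them higher in induced 2. A higher ratio shifts every peak towards induced 2, so nothing is read from that direction. The test takes reads as independent molecules and compares 2 libraries at their own summits, which at F are 75 bp apart. Over the shared sites together, induced 1 had 209 reads and induced 2 had 198, a ratio of 1.06 (exact binomial 95% interval 0.865 to 1.29), and without F it was 162 to 124, or 1.31. The interval covers counting error only and treats the sites as having a common ratio. Their own ratios were 1.30 at C, 1.51 at D, 1.18 at E and 0.635 at F.

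**Figure D3:**
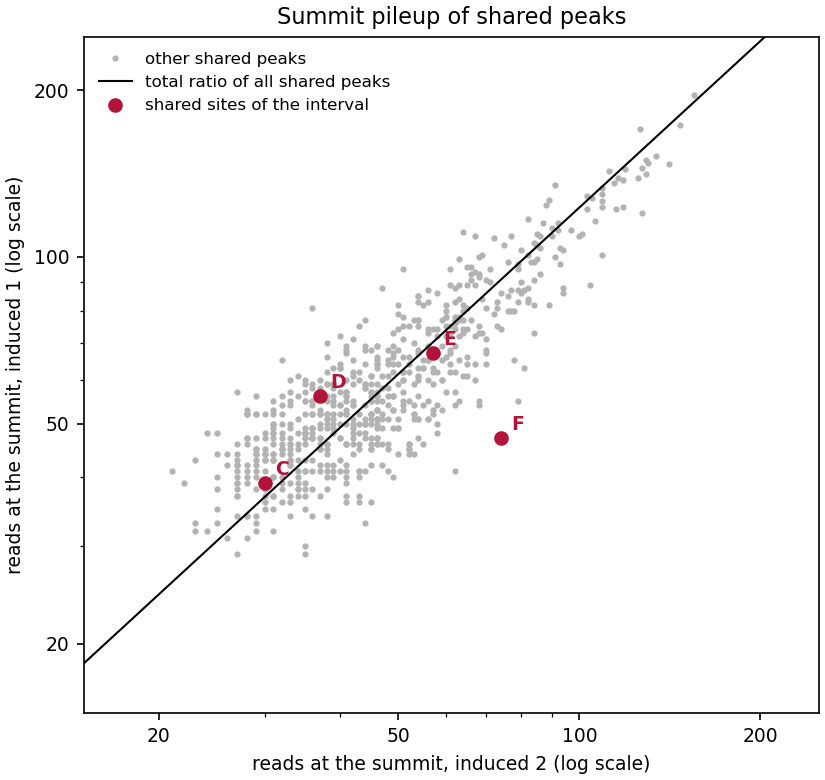
Summit reads of the 661 shared peaks in induced 1 against induced 2, on log axes, with sites C to F in red and a line at the total ratio of 1.23. Sites C, D and E lie well within the cloud of other peaks, and site F lies at its lower edge, with 47 reads in induced 1 and 74 in induced 2.

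For the sites listed in 1 library, the reads a call would have needed in the other were computed. At the backgrounds of its own peaks here, induced 1 needed 28 to 35 reads to reach the lowest −log10 p of its list, 5.52. Scaled by the overall ratio, the 36 reads of site A correspond to 44.2 in induced 1 (31.0 to 61.2) and the 43 reads of G to 52.8 (38.2 to 71.1). For site B in induced 2 the corresponding value was 31.7 (22.6 to 43.4), with 21 to 26 reads needed. The scaled intervals of A and B reached into the range where a call depends on the exact background, and that of G lay above it. They cover the counting error of the library that listed the site and leave out that of the other library's own reads. The ratio used for scaling came from peaks listed in both libraries. Reads at a site listed in 1 library only can be high by that selection, which was not corrected. The scaled values therefore do not set G apart from A and B. A site missing from a list is not shown to be unbound there.

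The nearest listed peaks outside the interval lay on both sides of it. Towards the short-arm end the nearest peak was at 2114595 in induced 2 (3.72-fold, 33 reads), 109 kb from the group, and at 1855612 in induced 1 (4.99-fold), 368 kb away. On the far side of ASCL2 both libraries had a peak with its summit at 2465767, 174 kb past the gene start, with folds of 4.87 and 6.38. These gaps are taken within single lists, so they are not set against the median of 1154 kb between neighbouring shared peaks, a smaller set.

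At the same 20 kb spacing, 3 other places in the genome had 3 or more shared sites in a row. The 4 shared sites near ASCL2 spanned 7.21 kb, against 13.3 kb for 4 sites on chromosome 1, 13.1 kb for 3 on chromosome 10 and 14.8 kb for 3 on chromosome 19. Their longest step was 5.03 kb, against 8.56, 10.9 and 13.8 kb in the same order. The run on chromosome 1 contained a far stronger site, at 1111033 to 1111956, with folds of 16.7 and 16.0, whereas none of the sites near ASCL2 exceeded 9.61. Read ratios of induced 1 to induced 2 were 1.06 near ASCL2, 1.12 on chromosome 1, 1.46 on chromosome 10 and 1.24 on chromosome 19. These differences between chosen regions were not tested.

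**Figure D4:**
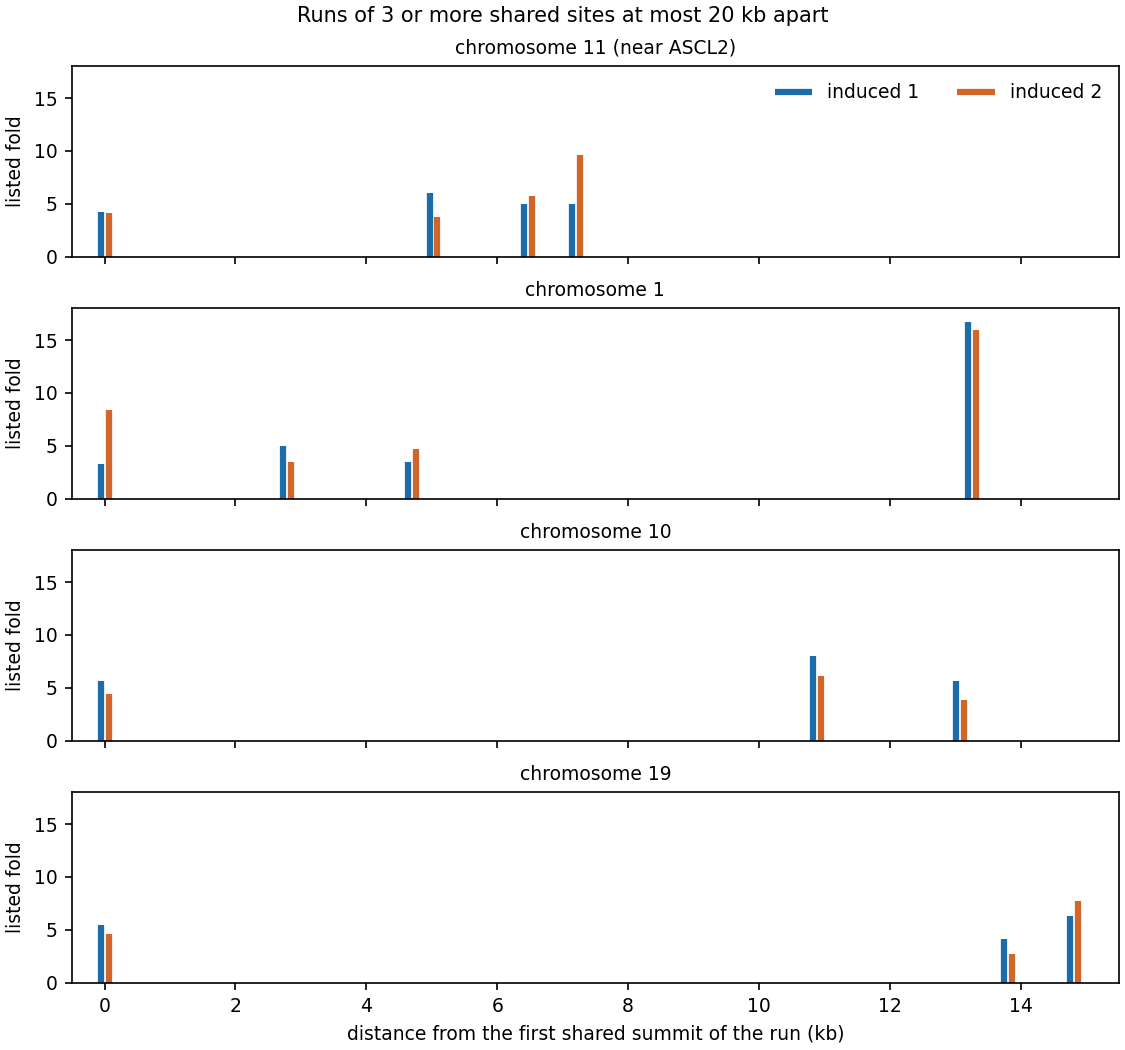
Listed fold enrichment of the shared sites in induced 1 (blue) and induced 2 (orange) in the 4 runs, against the distance in kb from the first shared summit of each run. The run near ASCL2 is the shortest at 7.21 kb, and the tallest bars, at 16.7 and 16.0, belong to chromosome 1.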

How the data were processed

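ChIP-seq peak lists of 4 libraries were used, grouped by the titles in the labels. Per the submitters' processing notes, Trimmomatic 0.36, BWA 0.7.15 and MACS2 2.1.1.20160309 were used with build hg19. Their roles and settings, and which control went with which library, are not stated in the sources used here. Each library has its own list, not pooled, in which the authors give the fold enrichment of each peak, its −log10 p and −log10 q, and a score made from the q-value.

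Members were all peaks with a summit in the interval, and this choice, the named sites and the compared regions were fixed with earlier results of these data known. Summit pileups were recovered by solving the deposited fold (pseudocount 1) and Poisson −log10 p together, within 0.0005, for 823 of 823 peaks of induced 1 and 1338 of 1338 of induced 2. This was tested on simulated data. Depth in total reads is unknown, and the lowest called pileups were 28 and 17 reads. The exact binomial test was run over all shared peaks with Benjamini-Hochberg adjustment (Python 3.11.15, scipy 1.17.1). No hg19 sequence or annotation was used, so motifs, exons and introns, and the planned list of crypt stem cell genes were not analysed here. Positions are counted from 1.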

Additional observations from a re-analysis of the deposited data

How the results depend on the processing

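The difference in mean peak number, 5.5, was also 5.5 under a replicate block, lay between 5 and 6 when any single library was omitted, and was 2 when peaks needed a fold of at least 5. The block, in a balanced layout, and the omission of an uninduced library, both with a count of 0, could not change the value. Whether the numbers 1 and 2 pair the samples could not be checked. Shared sites numbered 4, or 3 with summits at most 100 bp apart (site C is lost) and 1 when both peaks needed a fold of at least 5 (site E). The read ratio of 1.06 became 1.31 without site F, an alternative chosen after seeing the data, and the ratio of summed listed folds was 0.866. The nearest shared site was 59.7 kb from the gene start and 57.2 kb from the near gene edge, and in single lists the nearest site was at 56.1 to 59.6 kb. The longest run of sites, 4 among shared ones, was 5 in induced 1 and 6 in induced 2 alone, and 3 at a spacing of 5 kb. With the depth ratio of 1.45 in place of 1.23, the number of peaks differing between replicates went from 0 to 5, site F among them, and site C turned from 0.08 to -0.16 on the log2 scale without passing in either. The ratio and the shared counts need both induced libraries, so leaving 1 out gives no value. The motif alternatives were not run.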
